A study of Mus musculus with 4 samples.

Results

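The cells described here are those of the CN4 neural stem cell (NSC) line in which at least 1 read was found of 3 or more of 7 genes, namely *Sox10*, *Myt1*, *Dll3*, *Omg*, *Mybpc1*, *Dscaml1*, and *Nrp2*. This rule found 487 of 18157 CN4 cells, or 2.68% (2.45% to 2.93%, exact 95% binomial interval, counting error only), among 45325 cells of the 4 lines. They are called program cells below and are compared with the 13775 CN4 cells that had no read of any of the 7 genes. The remaining 3100 cells had a read of 1 of the genes, and 795 cells had reads of 2.

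Single cells of CN4 and of the lines KN1, XN1, and XN4 were measured on the BD Rhapsody system, which captures the mRNA of each cell on a barcoded bead, with 1 library per line. All the lines were derived from 129/Sv mouse epiblast stem cells and grew with EGF and FGF2, each at 10 ng/ml. CN4 was made with 2 µM of the Wnt signal activator CHIR99021, XN4 and XN1 with 10 µM of the Wnt signal inhibitor XAV939, and KN1 with neither compound. Each line is a single culture measured once, after passage through a 20 µm strainer and storage in a preservation fluid, so a difference between lines cannot be told apart from a difference between libraries.

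*Sox10* encodes a SoxE transcription factor of the oligodendrocyte lineage and of neural crest derivatives, and it acts with *Olig2*, *Sox8*, and *Nkx2-2* as oligodendrocyte precursors arise from the neural tube. *Dll1* is a ligand that activates Notch on adjacent cells, while *Dll3* is a divergent Delta protein that does not activate Notch in other cells; proneural factors turn on Delta genes in cells that leave the progenitor state, and *Hes1* is a target of Notch in progenitors. *Myt1* is a zinc finger factor of neuronal and oligodendrocyte precursors, *Omg* a glycoprotein of neurons and oligodendrocytes, *Nrp2* a semaphorin receptor, *Dscaml1* an adhesion molecule of neurons, and *Mybpc1* a myosin-binding protein best known from slow skeletal muscle.

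The values below are of 2 kinds. The share is the percent of cells with at least 1 read of a gene, and the level is the mean over cells of the reads of a gene per 10000 reads of the cell. The program cells were read less deeply than the comparison cells, with medians of 6611 and 9289 reads per cell, so the comparison cells were weighted to the depths of the program cells in 20 strata of total reads ("like depth"). At like depth the median number of genes per cell was 2414 in program cells and 2482 in the comparison, mitochondrial genes took 15.1% and 16.1% of the reads, and ribosomal protein genes took 7.54% and 4.99%. Of the program cells, 19 (3.90%) lay above the 95th percentile of reads of the line, against 4.59% of the comparison cells. No doublet caller was used.

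The labels in the tables name cells by their bead barcode, and 573 CN4 cells share such a label with a cell of another line, 22 of them program cells. Without the cells of shared labels, 465 program cells remained.

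The 7 genes of the rule were found unequally among the program cells. *Nrp2* had a read in 86.7% of them (level 5.01), *Dll3* in 83.0% (level 3.71), and *Myt1* in 53.8% (level 1.54). *Sox10* was found in 199 cells or 40.9% (level 1.74), *Mybpc1* in 34.9% (level 1.18), *Omg* in 24.0% (level 0.599), and *Dscaml1* in 23.4% (level 0.602). Thus most program cells carried *Dll3* reads, but fewer carried *Sox10* reads, and only 155 cells (31.8%) had reads of both. The most frequent combination was *Myt1*, *Dll3*, and *Nrp2* without the others, in 82 cells, followed by *Dll3*, *Mybpc1*, and *Nrp2* in 51 cells and *Sox10*, *Dll3*, and *Nrp2* in 47 cells. These values were fixed in part by the rule and are given as a description.

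The 7 genes were chosen with results of these cells known, so how often their reads met in 1 cell was in part fixed by that choice, and the next values describe it. If the genes were found independently within each stratum of depth, 53.9 cells would have had 3 or more of them, and 487 were observed, a ratio of 9.03. For cells with exactly 2 genes the ratio was 1.15 (795 observed), and for cells with exactly 4 it was 51.2 (117 observed). There were 37 cells with 5 genes, 12 cells with 6, and none with all 7. All 21 pairs exceeded the product of their shares, from 2.39 times for *Mybpc1* and *Nrp2* (214 cells) to 7.57 times for *Sox10* and *Dscaml1* (52 cells), with *Sox10* and *Myt1* at 6.98 times (91 cells).

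Each gene is also given in cells chosen by the other 6 genes alone, again as a description, as all 7 were chosen together. *Sox10* was found in 91 of 379 cells with 3 or more of the other 6 genes (24.0%, 19.8% to 28.6%), against 0.707% of cells with none of them at like depth. For *Myt1* the shares were 35.2% and 0.725%, for *Dll3* 64.8% and 4.49%, and for *Nrp2* 69.3% and 11.5%. *Omg* stood at 15.7% and 0.951%, *Mybpc1* at 20.8% and 1.72%, and *Dscaml1* at 13.9% and 0.598%. The ratio of shares was smallest for *Nrp2*, at 6.01.

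**Figure D1:**
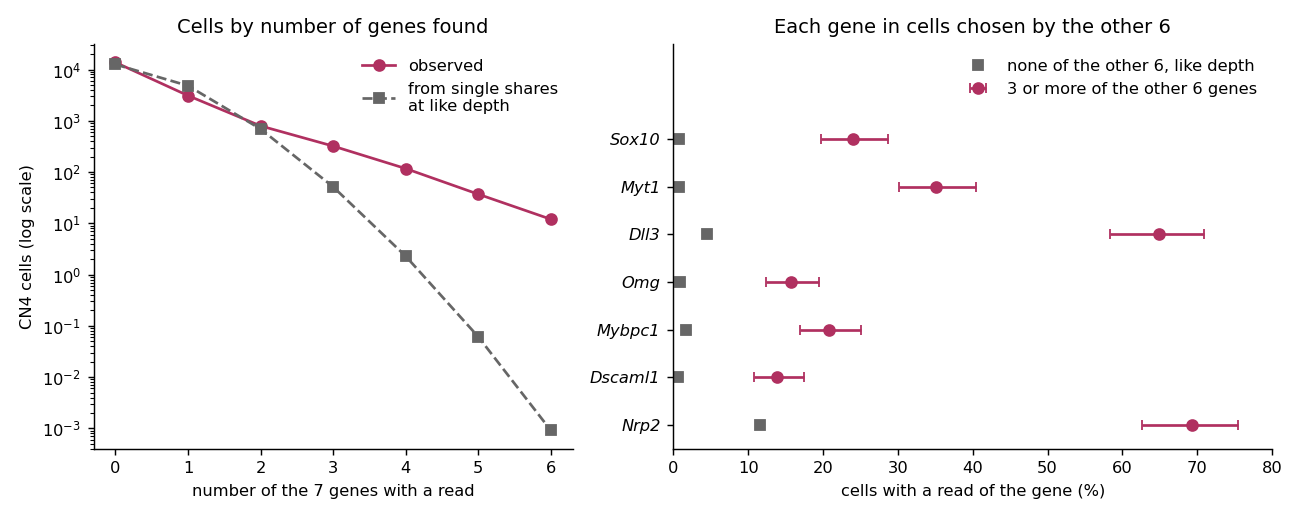
Left, CN4 cells (log scale) by the number of the 7 genes with a read, as observed and as computed from the single shares within 20 strata of depth; the observed line runs above the computed one from 2 genes on, with 321 cells against 51.6 at 3 genes. Right, percent of cells with a read of each gene, in cells with 3 or more of the other 6 genes (points, with exact 95% binomial intervals) and in cells with none of them at like depth (squares); every point lies to the right of its square.

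In the other lines the rule found 4 such cells among 14452 of XN1, 1 among 8741 of XN4, and none among 3975 of KN1. For KN1, *Sox10*, *Myt1*, and *Omg* are not listed in the table, so that the rule could not be fully applied there. KN1 cells also had a median of only 833 genes, against 2824 in CN4 cells processed alike. None of the 5 XN1 and XN4 cells had a label found in CN4. When each cell was thinned to 3600 reads, the rule still found 247 of 17614 CN4 cells (1.40%, 1.23% to 1.59%) and no cell of XN1 or XN4, which at 3 counts of the total allows a share of up to 0.0238% in XN1 and 0.0349% in XN4. With all reads, at unlike depth, *Sox10* was read in 2.06% of all CN4 cells, 0.422% of XN1 cells, and 0.0229% of XN4 cells. *Dll3* was read in 8.33%, 1.22%, and 0.435%. Others of the 7 genes did not follow this order. *Nrp2* was read in 28.3% of XN4 cells against 15.8% of CN4 cells. *Mybpc1* was read in 3.05% of CN4, 0.118% of XN1, and 0.366% of XN4 cells, and *Dscaml1* in 1.39%, 0.0969%, and 0.915%. After thinning to 3600 reads, *Nrp2* was read in 9.60% of CN4, 5.58% of XN1, and 14.5% of XN4 cells, and *Dll3* in 4.86%, 0.770%, and 0.128%. *Mybpc1* then stood at 1.78%, 0.0635%, and 0.0699%, *Dscaml1* at 0.795%, 0.0635%, and 0.198%, and *Omg* at 1.08%, 0.953%, and 0.0349%.

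Outside the 7 genes, 12405 genes were read in at least 1% of CN4 cells and were compared, with a median level ratio of program cells over the comparison of 0.963. This limit of 1% was set over all CN4 cells, program cells included. A gene rare in the comparison cells could thus pass it through the cells in which it was high. Other genes as rare there were left out. Of these, 569 genes (4.59%) had a level at least 2 times as high in program cells, and 1533 genes (12.4%) had a level at most 0.5 times as high. As both groups come from 1 library and were chosen by their reads, no test was made, and the ratios are a description of these cells. The counts depend on how rare a gene may be: with a read in at least 5% of CN4 cells required, 287 genes were at least 2 times as high and 856 at most 0.5 times as high. Without the cells of shared labels, the counts were 568 and 1543, and with ribosomal protein and mitochondrial genes left out of the totals they were 558 and 1592. Among the genes compared, 38 had no read in any program cell.

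**Figure D2:**
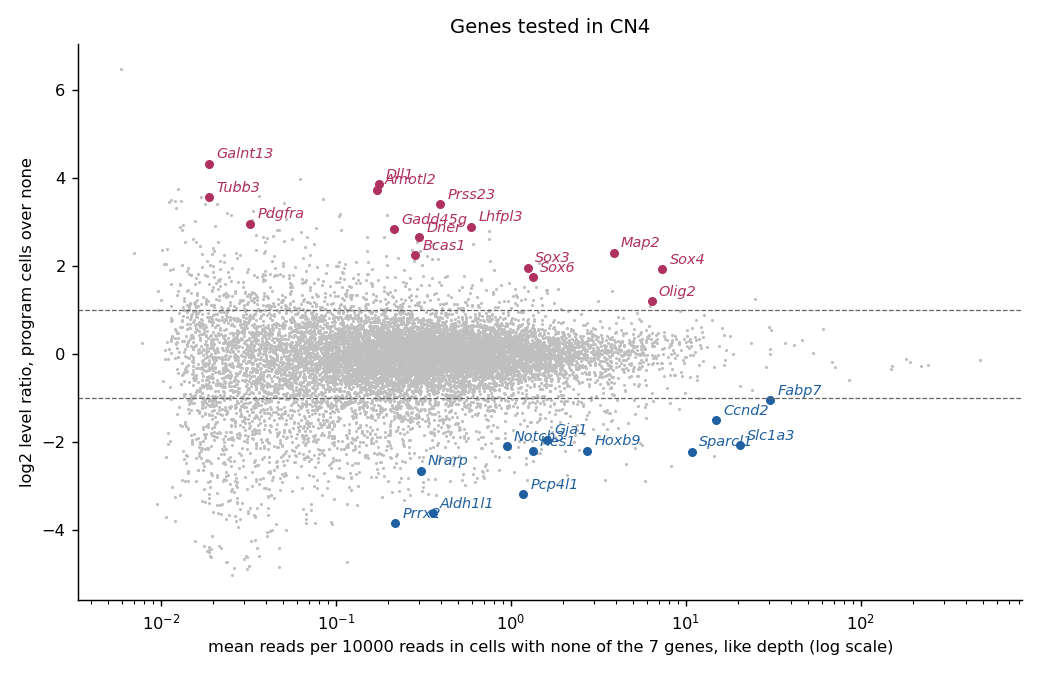
Log2 of the level ratio of program cells over cells with none of the 7 genes against the level in the latter (reads per 10000 reads, log scale, like depth), 1 point per gene compared that had reads in both groups; dashed lines mark ratios of 2 and 0.5. *Sox4*, *Map2*, and *Olig2* stand out above the upper line among strongly read genes, and *Slc1a3*, *Sparcl1*, and *Ccnd2* below the lower one.

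Among genes read in at least 10% of program cells, the largest ratio was that of *Galnt13*, an enzyme of mucin-type O-glycosylation, with a share of 13.1% against 0.984% and a level ratio of 20.1. *Dll1* was read in 61.0% (56.5% to 65.3%) against 6.99%, with levels of 2.57 and 0.176 and a ratio of 14.6. *Amotl2*, an angiomotin family member that binds YAP, followed with 57.3% against 7.05% (ratio 13.3), and *Prss23*, a secreted serine protease, with 72.1% against 14.5% (ratio 10.7). *Lhfpl3*, a membrane protein enriched in oligodendrocyte precursors, was read in 76.8% of program cells and 17.4% of the others (ratio 7.44). *Dll1*, *Amotl2*, *Prss23*, and *Lhfpl3* were thus each read in most program cells, although the rule did not use them.

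The rest of the 20 highest genes were read in fewer cells. They included the sodium leak channel *Nalcn* (14.6% against 1.18%, ratio 14.5), the phosphatase subunit *Ppp1r16b* (19.7% against 1.41%, ratio 14.5), the long noncoding RNA *Miat* (16.4% against 1.59%), the membrane protein *Tmeff2* (27.3% against 3.69%, ratio 11.5), and the netrin receptor *Dcc* (25.9% against 5.23%, ratio 8.98). *Pkhd1*, *Prkcq*, *B3gat2*, *Fam19a4*, *Rlbp1*, *Dpysl4*, *Bcl11b*, *Tub*, and *Pcdh10* had ratios between 7.36 and 10.9. *Actc1*, the cardiac form of actin, fell outside the rule for names and was chosen after its values were seen. It was read in 9.45% of program cells. No ratio is given for *Actc1*, as its share in the comparison cells was not set beside it. The Wnt-associated receptor *Lgr5*, also chosen after its values were seen, was read in 58.9% of program cells and 14.7% of the comparison cells, with a level ratio of 5.69.

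Oligodendrocyte precursor genes were mostly higher in program cells. Of 20 listed genes 16 were compared, of which 10 were at least 2 times as high (4.59% over all genes compared) and none at most 0.5 times as high (12.4% over all), and their median ratio was 2.33, against 0.963 over all genes compared. With the ratio of shares in place of levels this median was 1.49. *Tnr*, among the 10, was read in 0.958% of the comparison cells before weighting. It passed the 1% limit only with the cells that had rule gene reads. *Olig1* and *Olig2*, the basic helix-loop-helix factors of the lineage, were each read in 97.5% of program cells, against 81.1% and 79.1% of the comparison cells, with level ratios of 2.13 and 2.30. *Sox8* was read in 75.6% against 45.7% (ratio 2.36), *Nkx2-2* in 23.6% against 8.76% (ratio 2.94), and *Bcas1*, a gene of early myelinating cells, in 44.1% against 12.9% (ratio 4.76). *Pdgfra*, the receptor that marks oligodendrocyte precursors, had a ratio of 7.80 but a read in only 7.19% of program cells, against 1.50%. *Cspg4*, which encodes the NG2 proteoglycan, was read in 1.03% of program cells and was too rare to be compared. *Olig1* and *Olig2* were thus read in nearly every program cell, whereas the surface markers by which precursors are usually recognized were rare. *Ptprz1* (ratio 1.97), *Cntn1* (1.65), *Vcan* (1.05), *Cacng4* (0.639), and *Opcml* (0.580) did not reach 2-fold.

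Genes of differentiating oligodendrocytes were read at unlike levels. *Fyn* was read in 87.7% of program cells (level 4.92) and *Tcf7l2* in 46.6% (level 1.36), while others were rare or had no read. Of 13 compared, 7 were at least 2 times as high (4.59% over all genes) and 2 (*Tns3* and *Cd9*) at most 0.5 times as high, a share near the 12.4% over all genes. The median ratio was 2.15, but 1.16 among genes read in at least 5% of CN4 cells and 1.39 in cells with 2 or more of the 7 genes. The tight junction protein *Cldn11* was read in 7.60% against 0.824% (ratio 10.7) and the myelin enzyme *Cnp* in 46.0% against 18.5% (ratio 4.48). Myelin basic protein *Mbp* was read in 5.13% against 0.671% (ratio 7.66). *Mbp* was read in 0.813% of the comparison cells before weighting and passed the 1% limit only with the cells that had rule gene reads. *Mag*, *Mog*, and *Mobp*, genes of mature myelin, had no read in program cells and were read in 0.0177%, 0.0852%, and 0.0169% of the comparison cells, too few for the groups to be told apart. *Zfp488*, a partner of *Olig2* from the list of neural zinc fingers, was read in 2.05% of program cells and 0.0092% of the comparison cells, too few for a ratio. In that list, 4 of 6 genes compared were at least 2 times as high (4.59% over all genes), among them *Bcl11b* (8.38), *Zfp536* (2.37), and *Bcl11a* (2.22), with a median of 2.30, or 1.33 among genes read in at least 5% of CN4 cells.

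Neuronal precursor genes were higher as well. Of 16 compared, 12 were at least 2 times as high (4.59% over all genes) and none at most 0.5 times as high (12.4% over all), with a median ratio of 2.95, or 1.80 as a ratio of shares. The microtubule protein *Map2* was read in 98.8% against 78.5%, with levels of 19.2 and 3.87 (ratio 4.96), and the transcription factor *Sox4* in 99.8% against 88.9%, with levels of 28.0 and 7.36 (ratio 3.81). Genes of young neurons stayed rare: *Tubb3* was read in 8.62% against 1.08% (ratio 11.9), *Elavl3* in 8.62% against 1.06% (ratio 10.7), *Insm1* in 6.16% against 0.538% (ratio 11.4), and *Dcx* in 10.5% against 3.24% (ratio 5.69). *Insm1*, read in 0.646% of the comparison cells before weighting, passed the 1% limit only with the cells that had rule gene reads. *Gap43* (0.921), *Syt1* (1.05), and *Sox11* (1.49) lay below 2-fold. Of the members of both lists that were read in most program cells, *Olig1*, *Olig2*, *Sox4*, and *Map2* were also read in 78.5% to 88.9% of the comparison cells.

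**Figure D3:**
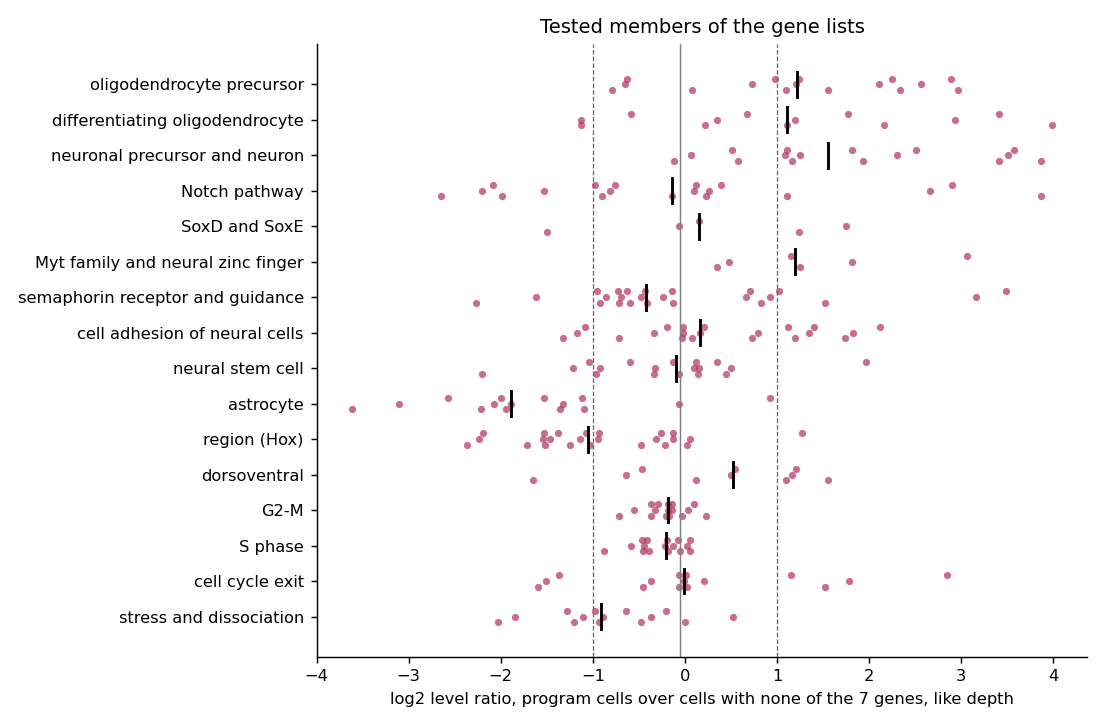
Log2 level ratios of the compared members of 16 gene lists (points), with the median of each list (black bar); dashed lines mark ratios of 2 and 0.5, and the grey line marks the median of all genes compared. The astrocyte list lies almost wholly below the others, and the G2-M and S phase lists stay between the dashed lines.

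Notch pathway genes lay on both sides, also within a role. Of 19 compared, 4 were at least 2 times as high (4.59% over all genes compared) and 5 at most 0.5 times as high (12.4% over all), with a median of 0.904. The ligand *Jag1* had a ratio of 0.590, while the ligands *Dll1* (14.6) and *Dner* (54.0% against 13.7%, ratio 6.34), the glycosyltransferase *Mfng* (4.93% against 0.698%, ratio 7.46), and *Hes6*, which opposes *Hes1*, (49.7% against 26.1%, ratio 2.16) were higher. *Mfng*, in 0.799% of the comparison cells before weighting, passed the 1% limit only with the cells that had rule gene reads. *Hes1* was read in 13.3% of program cells and 44.1% of the comparison cells (ratio 0.218), *Nrarp*, a feedback inhibitor induced by Notch, in 3.70% against 14.3% (ratio 0.160), the receptor *Notch3* in 14.0% against 39.1% (ratio 0.235), *Dtx4* in 17.9% against 43.9% (ratio 0.252), and *Lfng* in 23.0% against 43.7% (ratio 0.345). *Notch1* (1.09), *Rbpj* (1.32), and the targets *Hes5* (1.07) and *Hey1* (0.568) stayed within 2-fold. Within the program cells, *Hes1* was read in 10.1% (6.92% to 14.1%) of the 297 cells with *Dll1* reads and in 18.4% (13.2% to 24.7%) of the 190 without. These shares were weighted neither for depth nor for the number of rule genes read. *Hes1* itself was lower in cells with 4 or more of the rule genes (7.02%) than with exactly 3 (15.7%).

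The starts of both Delta genes and of *Mybpc1* are shown because they hold CAGCTG, an E-box form that proneural factors bind, within 300 bases around the start. The sequences are from RefSeq on GRCm38.p6, which lists promoters of 4 of the 7 rule genes (*Nrp2*, *Myt1*, *Dll3*, and *Mybpc1*). Of these 6 promoters, 2 hold CAGCTG, and those of *Nrp2* and *Myt1* do not. For *Dll1* 2 promoters are listed, of which 1 holds the motif. The 3 genes shown lie on the minus strand. The sequences read 5′ to 3′ on that strand, with CAGCTG and ACAAAG in capitals.
*Dll3* (chr7:28301736-28302035): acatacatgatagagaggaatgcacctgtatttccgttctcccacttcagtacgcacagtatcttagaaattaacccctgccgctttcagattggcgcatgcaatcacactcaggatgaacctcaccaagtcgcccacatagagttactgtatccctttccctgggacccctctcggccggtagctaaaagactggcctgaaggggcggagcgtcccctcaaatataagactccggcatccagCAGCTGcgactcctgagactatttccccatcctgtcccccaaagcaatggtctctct
*Dll1* (chr17:15376883-15377182): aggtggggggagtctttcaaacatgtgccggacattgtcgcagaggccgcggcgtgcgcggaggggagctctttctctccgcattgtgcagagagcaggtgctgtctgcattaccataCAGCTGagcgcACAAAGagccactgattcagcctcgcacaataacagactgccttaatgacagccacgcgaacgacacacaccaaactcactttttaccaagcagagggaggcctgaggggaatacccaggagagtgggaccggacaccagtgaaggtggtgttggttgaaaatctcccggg
*Mybpc1* (chr10:88605103-88605402): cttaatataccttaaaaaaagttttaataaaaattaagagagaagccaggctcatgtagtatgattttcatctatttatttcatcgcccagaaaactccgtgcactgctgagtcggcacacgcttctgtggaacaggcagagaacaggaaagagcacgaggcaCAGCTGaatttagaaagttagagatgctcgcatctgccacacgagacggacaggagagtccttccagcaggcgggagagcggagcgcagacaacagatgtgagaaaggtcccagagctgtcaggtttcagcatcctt
CAGCTG, its own reverse complement, was found in 23.0% of 578 promoters of the genes at least 2 times as high, in 17.5% of 1480 promoters of the genes at most 0.5 times as high, and in 15.2% of 12414 promoters of all genes compared (16.3% of all 32851 promoters). ACAAAG, a core that SOX factors bind, or its complement CTTTGT, was found in 18.9%, 15.2%, 13.7%, and 18.7% of these sets. GTGGGAA, the core bound by the Notch effector RBPJ, or TTCCCAC, was found in 6.06%, 6.82%, 6.03%, and 6.38%. A match is a description of the letters, and binding was not measured.

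SoxD factors and the SoxE factors, to which *Sox10* itself belongs, differed among themselves. *Sox6* was read in 79.1% of program cells and 42.7% of the comparison (ratio 3.36), and *Sox8* had a ratio of 2.36, while *Sox5* (0.958) and *Sox9* (1.11) were close to equal and *Sox13* was lower (0.355). Of the SoxB factors that hold neural progenitors, *Sox3* was read in 78.0% against 37.9% (levels of 4.89 and 1.25, ratio 3.92), *Sox2* in 71.5% against 81.0% (ratio 0.800), and *Sox1* in 15.8% against 25.0% (ratio 0.512).

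Astrocyte genes were mostly lower. All 15 listed astrocyte genes were compared, 13 were at most 0.5 times as high (12.4% over all genes), and the median ratio was 0.270, or 0.599 as a ratio of shares. The glutamate transporter *Slc1a3* was read in 73.1% of program cells and 98.2% of the comparison cells, with levels of 4.83 and 20.3 (ratio 0.238), and the secreted glycoprotein *Sparcl1* in 55.4% against 90.6%, with levels of 2.34 and 10.9 (ratio 0.216). Gap junction protein *Gja1* was read in 19.9% against 52.3% (ratio 0.261), *Gfap* in 1.23% against 4.49% (ratio 0.116), and *Aldh1l1* in 2.26% against 13.2% (ratio 0.0813). *Slc1a3*, *Sparcl1*, and *Gja1* were all without a read in 66 program cells (13.6%), against 0.520% of comparison cells. *S100b*, which oligodendrocyte precursors also use, had a ratio of 1.90. *Aldh1l1* was also among the 10 lowest of all genes read in at least 10% of the comparison cells, with *Prrx2* (0.0700), *Ackr4*, *Isyna1*, *Sel1l3*, *Slc6a11*, *Pcp4l1*, *Tgfbr2*, *Daam2*, and *Celsr1*. Of these *Pcp4l1* had the largest share in the comparison, 34.0%, against 6.16% in program cells (ratio 0.110).

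General neural stem cell genes had counts near those of all genes. Of 18 compared, 1 (*Sox3*) was at least 2 times as high and 3 (*Hes1*, *Id1*, and *Fabp7*) at most 0.5 times as high, against 4.59% and 12.4% over all genes, with a median ratio of 0.938. *Vim* was read in 94.0% against 97.2% (ratio 0.917), and the radial glial lipid-binding protein *Fabp7* in 95.1% against 97.7%, with levels of 14.7 and 30.3 (ratio 0.486). *Nes* (0.527) and *Nfib* (0.663) were lower by less.

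Program cells included dividing cells. No member of the G2-M list or of the S phase list reached 2-fold in either direction, with median ratios of 0.881 and 0.867 over 16 genes each. *Mki67* was read in 39.0% against 52.4% (ratio 0.797) and *Pcna* in 51.1% against 54.4% (ratio 0.946). The list of cell cycle exit also held the D cyclins *Ccnd1*, *Ccnd2*, and *Ccnd3*, which drive the cycle and are not genes of exit. Of its 15 genes, 4 were at least 2 times as high (4.59% over all genes) and 3 at most 0.5 times as high (12.4% over all). The median over all of them, cyclins included, was 0.994. Of these *Gadd45g*, a growth arrest gene, was read in 45.6% against 8.37% (ratio 7.18), the inhibitor *Cdkn1c* in 31.0% against 14.9% (ratio 3.45), and *Btg2* in 68.6% against 34.5% (ratio 2.87), while cyclin *Ccnd2* was read in 60.4% against 92.1% (levels of 5.24 and 14.9, ratio 0.353), and *Btg1* (2.23), *Gadd45a* (0.387), and *Cdkn2b* (0.330) made up the rest. *Ccnd1* (0.959) and *Cdkn1b* (0.994) were close to equal. Phase was not called, as these shares come from reads alone. Under the rule applied after thinning to 3600 reads, which left 247 program cells, the G2-M and S phase medians were 0.446 and 0.463.

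*Hox* genes, which mark positions along the posterior neural tube, were mostly lower in program cells. Of 24 *Hox* genes compared, 13 were at most 0.5 times as high (12.4% over all genes) and 1 (*Hoxd3*, 1.44% against 0.845%) at least 2 times as high (4.59% over all), the latter with a ratio of 0.827 when the rule was applied after thinning, with a median of 0.482. *Hoxb9* was read in 25.5% against 61.3% (ratio 0.218), *Hoxc8* in 23.6% against 44.9% (ratio 0.305), and *Hoxb8* in 48.0% against 69.9% (ratio 0.488), but *Hoxa7* in 49.3% against 55.3% (ratio 0.806) and *Hoxb4* in 20.3% against 20.7% (ratio 0.913). Of 10 dorsoventral genes compared, 4 were at least 2 times as high (4.59% over all genes), among them *Nkx2-2*, *Olig1*, and *Olig2*, and 1 was at most 0.5 times as high (12.4% over all), the floor plate factor *Foxa2* (2.26% against 4.21%, ratio 0.318), with a median of 1.43. *Pax6* (1.41), *Pax3* (1.45), *Irx5* (1.08), *Irx3* (0.726), and *Dbx2* (0.641) did not reach 2-fold.

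Guidance and adhesion genes, the families of *Nrp2* and *Dscaml1*, are described next. Of 24 guidance genes compared, 4 were at least 2 times as high (4.59% over all genes compared), namely *Plxnb3* (6.37% against 0.715%, ratio 11.2), *Dcc*, *Slit2* (2.88), and *Plxnc1* (2.03). At most 0.5 times as high were 2 (12.4% over all), the floor plate netrin *Ntn1* (0.327) and *Unc5b* (0.207). *Plxnb3* was read in 0.762% of the comparison cells before weighting and passed the 1% limit only with the cells that had rule gene reads. *Nrp1*, the paralog of *Nrp2*, had a ratio of 0.609. Of 21 adhesion genes, 7 were at least 2 times as high (4.59% over all), among them *Nrxn3* (29.6% against 9.40%, ratio 4.35), *Dscam*, the paralog of *Dscaml1* (14.4% against 4.79%, ratio 3.34), and *Cadm4* (75.4% against 42.0%, ratio 2.55). *Ncam1* (63.0% against 87.0%, ratio 0.442), *Chl1* (0.399), and *Cdh13* (0.473) were at most 0.5 times as high, a share near the 12.4% over all genes.

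Genes beside the rule genes were read on GRCm38 with the GENCODE annotation. Of 28 genes compared that lie within 100 kb of a rule gene, 6 (21.4%) were at least 2 times as high, against 4.59% of all genes compared. *Pcmtd2* starts 10057 bases beyond the end of *Myt1* (chr2:181763332-181827797) on the same strand and was read in 76.2% of program cells and 26.7% of the comparison (ratio 5.72), and the next gene, *Polr3k*, in 78.6% and 31.7% (ratio 6.15). *Oprl1*, on the other side of *Myt1*, was read in 6.98% and 0.147%, and was too rare in CN4 to be compared. *Polr2f* ends 3134 bases from *Sox10* (chr15:79154908-79165240) on the opposite strand and was read in 62.4% and 36.5% (ratio 2.59), and *Micall1* in 11.3% and 4.81% (ratio 2.45). Among program cells, *Pcmtd2* was read in 78.6% (73.2% to 83.4%) of cells with *Myt1* reads and in 73.3% (67.0% to 79.0%) of cells without, and *Polr2f* in 59.3% of cells with *Sox10* reads and 64.6% of cells without. Program cells with no read of the rule gene thus also had higher shares of *Pcmtd2* and *Polr2f* than the comparison. Such a cell may still hold the transcript of the rule gene, as the capture is partial. The cause of the higher reads was not tested. Neighbors of *Dll3* such as *Timm50* (1.67) and *Supt5* (1.48) did not reach 2-fold, and *Zfp36* was lower (0.326). *Nf1*, which overlaps *Omg* on the opposite strand, had a ratio of 1.20. Introns were counted, and whether reads were assigned by strand is not given in the sources used here, so the reads of *Omg* and *Nf1* are uncertain.

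**Figure D4:**
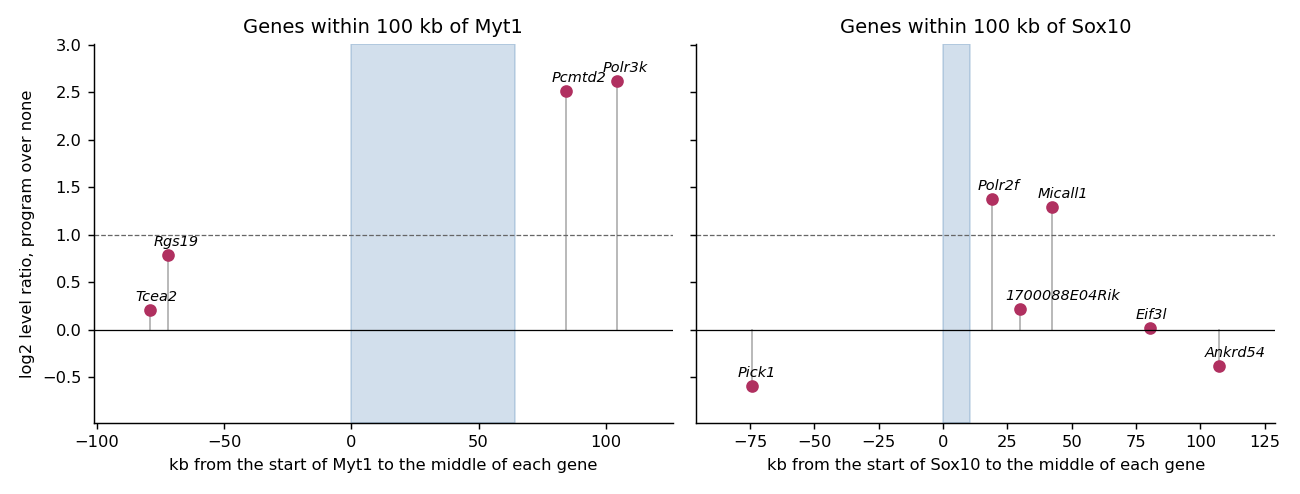
Log2 level ratio of the compared genes within 100 kb of *Myt1* and *Sox10*, against the distance in kb from the start of the rule gene to the middle of each gene, in the direction of its transcription; shaded bands mark the rule genes and the dashed line a ratio of 2. *Pcmtd2* and *Polr3k* lie above the line downstream of *Myt1*, and *Polr2f* and *Micall1* downstream of *Sox10*.

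The limit of 3 genes is compared here with cells just outside it. At like depth, *Dll1* was read in 49.3% of cells with exactly 2 of the 7 genes, 59.6% of cells with exactly 3, and 64.6% of cells with 4 or more, against 22.4% of cells with 1 and 6.99% of cells with none. *Lhfpl3* was read in 62.6% of cells with 2 genes and 75.4% of cells with 3, and *Sox3* in 74.3% and 76.8%. *Slc1a3* went down over the series 0, 1, 2, 3, and 4 or more genes, from 98.2% to 91.3%, 82.5%, 75.5%, and 67.4%, and *Hes1* from 44.1% to 38.4%, 22.8%, 15.7%, and 7.02%. *Sparcl1* was read in 55.5% of cells with 2 genes, 54.8% with 3, and 55.6% with 4 or more, and *Mki67* in 49.1%, 43.3%, and 29.2%. *Dner* was read in 22.0%, 33.6%, and 50.2% of cells with 1, 2, and 3 genes, and *Ccnd2* in 84.8%, 75.9%, and 63.7%. For *Dll1*, *Lhfpl3*, *Sox3*, *Slc1a3*, *Hes1*, and *Sparcl1*, the step from 2 to 3 genes was smaller than that from 1 to 2 genes, and for *Dner*, *Ccnd2*, and *Mki67* it was larger.

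**Figure D5:**
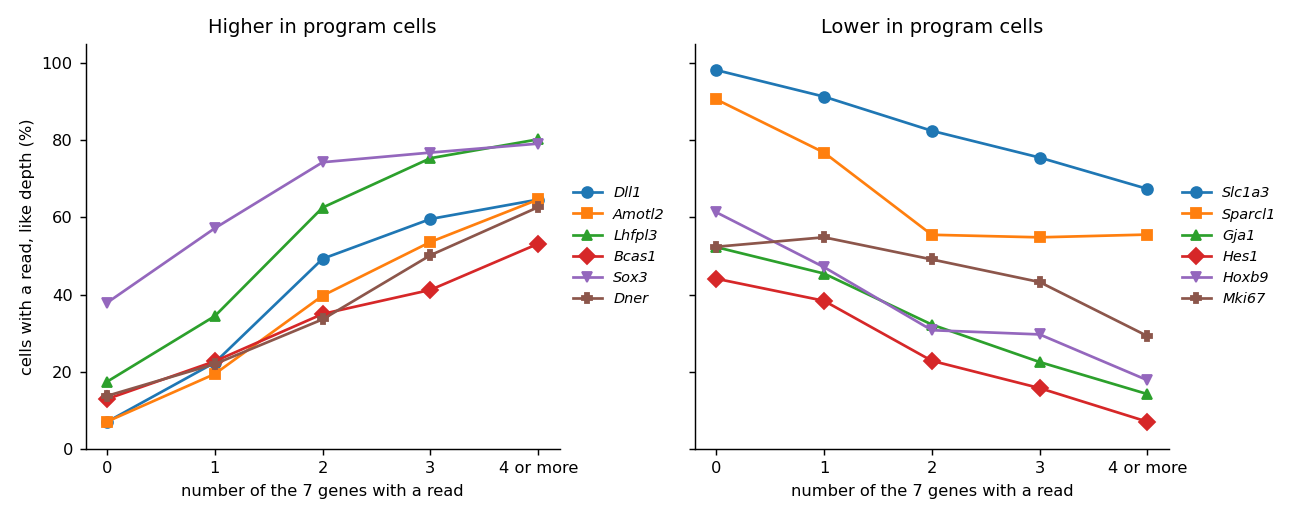
Percent of cells with a read at like depth against the number of the 7 genes with a read (0, 1, 2, 3, and 4 or more), for genes higher (left) and lower (right) in program cells. *Dll1* goes from 6.99% to 64.6% and *Hes1* from 44.1% to 7.02%.

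Program cells also lay near each other when the rule genes were left out. In 30 principal components of 2000 variable genes without the 7 genes, 35.2% of the 30 nearest neighbors of a program cell were program cells, against 3.88% from the share of program cells at the depth of those neighbors, a ratio of 9.06. A further 25.0% of the neighbors had reads of 2 of the 7 genes, a class that makes 4.38% of CN4. The cells were not uniform in this, as 154 (31.6%) had program cells as at least 50% of their neighbors and 36 (7.39%) had no program cell among them.

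Program cells with and without *Sox10* reads were within 2-fold of each other in level for 175 of 178 listed genes that were read in at least 10% of program cells. The 199 cells with *Sox10* and the 288 without had medians of 6531 and 6662 reads. By the rule, cells without *Sox10* needed 3 or more of the other genes, and cells with it needed fewer. *Myt1* was read in 44.2% of those with *Sox10* and 60.5% of those without at like depth, and *Nrp2* in 76.9% and 93.3%. The groups were thus chosen unlike in more than *Sox10*. Rarer genes of the oligodendrocyte lineage went both ways. *Pdgfra* was read in 11.6% of those with *Sox10* and 4.18% of those without at like depth (23 and 12 cells, level ratio 3.94). *Mbp* was read in 8.04% and 3.16% (16 and 9 cells, 2.83), *Cldn11* in 11.1% and 5.09% (1.73), and *Zfp488* in 8 and 2 cells. *Pcdh15* was lower with *Sox10*, at 4.02% and 9.41% (8 and 27 cells, 0.428), as were *Tns3* (0.547), *Tnr* (0.667), and *Itpr2* (0.743). *S100b* was read in 19.1% of those with *Sox10* and 11.7% of those without at like depth (level ratio 2.34), *Cnp* in 51.3% and 42.3% (1.45), and *B3gat2* in 40.7% and 29.1% (1.65). *Sox9* was read in 46.7% and 59.1% (0.630), *Sox1* in 10.6% and 19.2% (0.460), and *Gap43* in 17.6% and 23.0% (0.525). A cell without a *Sox10* read may still hold its transcript, as the capture is partial.

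*Sox10* reads also occurred in XN1, in 61 cells. In CN4, *Sox10* was read in 374 cells, of which 48.9% had *Dll3* reads against 8.37% of the other cells at like depth, 53.7% *Dll1* against 12.4%, and 69.8% *Lhfpl3* against 23.6%, while *Slc1a3* was at 78.1% against 95.8%. Of the 61 XN1 cells, 8.20% (2.72% to 18.1%) had *Dll3* reads against 1.27%, 6.56% *Dll1* against 2.31%, and 8.20% *Lhfpl3* against 0.865%, and *Slc1a3* was at 93.4% against 90.7%. *Myt1*, *Mybpc1*, and *Dscaml1* had no read in these 61 cells and were read in 0.404%, 0.139%, and 0.0981% of the other XN1 cells, too few to tell the groups apart. *Sox4* was higher with *Sox10* in both lines, by 2.69 times in CN4 and 2.28 times in XN1. Of these cells 6 of CN4 and 2 of XN1 had a label found in the other line, and without all shared labels *Dll3* stood at 8.47% in 59 XN1 cells. The difference between the lines was not tested, as each is 1 library.

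Lists of other cell types were also read. Of 16 neural crest and Schwann cell genes 8 were compared, with a median log2 ratio of 0.68. Of these, 3 were at least 2 times as high (4.59% over all genes compared), namely *Ets1* (51.1% against 17.3%, ratio 4.51), *Egr2* (2.33), and *Cdh19* (3.05), and 2 at most 0.5 times as high (12.4% over all), namely *Pmp22* (0.321) and *Ednrb* (42.1% against 57.1%, ratio 0.447). *Gas7* (60.0% against 44.2%) and *Pax3* (18.9% against 14.6%) stayed within 2-fold. *Ngfr* and *Erbb3*, which neural crest and Schwann precursors use, had no read in program cells. They were read in 0.264% and 0.440% of the comparison cells, too few for the groups to be told apart. The summed level of the list was 6.37 in program cells and 5.72 in the comparison. Their part in the results was not tested. The mesenchyme list had 6 genes compared with a median of 0.496, which turned to 1.31 when the rule required at least 2 reads per gene, and its summed level was 0.751 in program cells and 1.44 in the comparison. The blood, vessel, and microglia list summed to 0.0485 and 0.0716, and the epiblast list to 0.0170 and 0.0496, with no read of *Pou5f1*. Stress and dissociation genes were lower, with 5 of 14 at most 0.5 times as high (12.4% over all genes) and a median of 0.532, as *Fos* was read in 23.6% against 40.2% (ratio 0.278) and *Hspa5* in 72.3% against 86.0% (ratio 0.465).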

How the data were processed

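The tables of CN4, XN1, and XN4 deposited by the authors hold counts of reads (not of molecular identifiers) per gene and cell. Per the file headers, they came from the WTA pipeline of BD Rhapsody (1.12.1) with GRCm38 and GENCODE M19, and included intronic reads and refined cell calling. Further deposited tables hold values on the natural log scale, scaled to 10000 reads per cell with Seurat 4.3.0, for subsets of cells and without ribosomal protein and mitochondrial genes. These were turned back into reads, 100% whole within 0.01, and were used for KN1 and to mark cells for 1 alternative. The CN4 table held 180825519 reads with a median of 9173 per cell. Medians were 12615 in XN4 and 5981.5 in XN1. The KN1 median of 5862 is of the scaled values turned back into reads, without ribosomal protein and mitochondrial genes. For such values the CN4 median was 6572. The median number of genes per cell was then 833 in KN1, against 2824 in CN4, 2257 in XN1, and 2479 in XN4.

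The 7 genes and all gene lists were chosen with earlier results of these data known, so the values are descriptions. Genes with reads in at least 1% of all CN4 cells, program cells included, were compared. A ratio of mean reads per 10000 of at least 2 or at most 0.5 was counted. Intervals are exact Clopper-Pearson intervals of counting error. With 1 library per line there are no replicates, and no p-value was computed. Genes named are the 7, the 20 with the largest ratio among those in at least 10% of program cells, the 10 with the smallest ratio among those in at least 10% of comparison cells, members of the lists, and genes within 100 kb of a rule gene, whose part in the text was chosen after their values were seen. Some genes that meet these criteria are left unnamed. Nearest neighbors were computed with scikit-learn 1.9.0 and the rest with NumPy 2.4.6 and SciPy 1.17.1. On simulated CN4 data with 200 changed genes among 12405, 100% of those raised 3-fold and 90% of those lowered to 0.333 were recovered, and 0.336% and 1.78% of unchanged genes passed 2-fold up and down.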

Additional observations from a re-analysis of the deposited data

How the results depend on the processing

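The alternatives changed the size of the class, the depth matching, the measure, and the genes compared. For the ratios of 139 single genes, 3335 of 3474 values under the alternatives stayed on the same side of 2-fold, 85 came back within 2-fold, and 52 passed it. The ratio of *Amotl2* ranged from 8.12 to 18.1 and that of *Hes1* from 0.0963 to 0.362. *Hoxd3* reversed, to 0.940 without *Dll3* in the rule and 0.827 with thinning before the rule.

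The number of program cells was 140 with at least 2 reads per gene, 1282 with 2 or more of the genes, 166 with 4 or more, 236 without *Dll3* in the rule, 212 without *Nrp2*, 247 with thinning to 3600 reads before the rule, 99 among cells of the normalized table, and 183 among cells with no read of *Mki67*, *Top2a*, and *Hmgb2*. Genes at least 2 times as high numbered 881 with at least 2 reads, 363 with 2 or more genes, 903 with thinning before the rule, 937 in the normalized cells, 967 without the 3 mitotic genes, 1355 with a read in only 20 cells, and 287 with a read in 5% of cells. Genes at most 0.5 times as high numbered 995 with 2 or more genes, 2379 in the normalized cells, 2322 without the mitotic genes, 3477 with 20 cells, and 856 with 5%. The ratio of observed to computed cells was 22.7 with 2 reads and 25.7 with thinning before the rule. The neighbor ratio was 13.1 without depth groups, and thinning left 0 cells by the rule in XN1 and in XN4. The cause of these shifts was not tested.

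List medians moved as follows. With shares, they came to 1.49 (oligodendrocyte precursor), 1.80 (neuronal precursor), 0.599 (astrocyte), 1.67 (zinc finger), 0.604 (*Hox*), and 0.561 (mesenchyme). The differentiating oligodendrocyte median was 1.39 with 2 or more genes, 1.64 with thinning after the rule, 1.99 in the normalized cells, 1.96 without mitotic genes, and 1.16 with the 5% filter. The zinc finger median was 1.90 in the normalized cells, 1.74 without mitotic genes, and 1.33 with the 5% filter. The *Hox* median was 0.555 with 2 or more genes, 0.504 without *Mybpc1* in the rule, and 0.526 in the normalized cells. The mesenchyme median reversed to 1.31 with at least 2 reads, and was 0.565 without *Sox10*, 0.511 without *Omg*, 0.574 without *Mybpc1*, 0.521 without *Dscaml1*, 0.582 with thinning after the rule, and 0.574 with 20 cells. The stress median was 0.493 without *Myt1*, 0.495 without *Mybpc1*, 0.492 in the normalized cells, and 0.458 without mitotic genes. With thinning before the rule, the G2-M median was 0.446, the S phase median 0.463, and the blood list median 0.397. The blood list also gave 0 in the normalized cells and 0.422 with 20 cells. The epiblast list, with 1 gene, gave 0.590 with at least 2 reads, 0.773 with 2 or more genes, and 0.514 without *Sox10*.

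No paired analysis was possible because each line is 1 library and no test was made. Reads without molecular identifiers are not independent molecules, and intervals cover counting error only.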
